A study of Mus musculus with 8 samples.

Results

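The genes described here are 10 components of the Wnt pathway that Wnt signalling itself switches on or acts through: the secreted and membrane inhibitors Notum, Apcdd1, Znrf3 and Rnf43, the R-spondin receptor Lgr4, the intracellular inhibitors Axin2 and Nkd1, and the transcription factors Sp5, Tcf7 and Lef1. They were taken by gene symbol, and each symbol matched 1 of the 55880 genes in the deposited count table. The RNA came from small-intestinal crypts, the epithelial pits between the villi in which the stem cells of the gut lining sit. The 8 libraries carry 4 labels of miR-29ab1-/-, a knockout of the locus of the microRNAs miR-29a and miR-29b-1, and 4 labels of wild type (WT), all in C57BL/6N mice before irradiation, with no age, sex or promoter-driven allele given. The series title ties miR-29ab to the fate of intestinal stem cells through energy metabolism, and the comparison below gives the state of the Wnt feedback genes in the same crypts. Libraries are called KO1 to KO4 and WT1 to WT4 after their labels and numbers.

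Wnt ligands from Paneth cells and the surrounding stroma keep crypt stem cells dividing: they bind Frizzled and Lrp receptors, the destruction complex built on Axin stops degrading beta-catenin, and beta-catenin joins TCF and LEF proteins on target genes. Several of those targets code for inhibitors, so that the signal limits itself at the ligand, the receptor, the destruction complex and the nucleus. R-spondins bound to Lgr receptors counter this limit by clearing Rnf43 and Znrf3 from the cell surface. Axin2, Lgr5 and the other targets are therefore widely read as a gauge of Wnt activity in the intestine.

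The labels were checked at the locus first. Mir29a had 0 counts in every library, and Mir29b-1 had 2, 5, 7 and 3 counts in KO1 to KO4, or 17 together, against 0 in WT1 to WT4. The neighbouring noncoding RNA Lncpint had 114 to 170 CPM, counts relative to library size, in libraries labelled knockout and 0.690 to 0.936 CPM in libraries labelled WT. The hairpin was thus counted in the group labelled as lacking it, which goes against the label as written, and both groups are called by their labels only. Whether the labels were exchanged or another reason applies was not tested and cannot be told from these counts. If the labels were exchanged, the sign of every fold change below would turn. Library depth was 13879472 to 17368666 counts. The 6 epithelial markers were present in all libraries at a summed 7847 to 15170 CPM in those labelled knockout and 8223 to 11240 CPM in those labelled WT, whereas stromal markers summed to 11.2 to 22.6 CPM in libraries labelled knockout and 8.21 to 65.4 CPM in those labelled WT, with Pdgfra, Foxl1, Lum, Col1a1 and Col1a2 at 0 in some libraries. WT1 had the highest summed T-cell markers (110.5 CPM) and stromal markers (65.4 CPM), and KO4 had the highest enterocyte sum (39070 CPM) with the lowest stem-cell (1400 CPM), Paneth-cell (17070 CPM) and cell-cycle (472 CPM) sums. Neither litter nor day nor batch is named in the labels, and p-values below therefore measure only the spread between these libraries, which may be technical.

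The mature miR-29 sequences are shown because the genotype label names 2 of their genes and because all members of the family read the same target letters. Bases 2 to 8, the seed that pairs with a target, are in capitals. The sequences are from RefSeq (GRCm38.p6).
miR-29a-3p: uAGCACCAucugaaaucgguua
miR-29b-3p: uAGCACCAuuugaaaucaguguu
miR-29c-3p: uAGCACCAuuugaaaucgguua
The seed AGCACCA is the same in all of them. The miR-29a-3p sequence lies at chr6:31062673-31062694 and that of miR-29b-3p from Mir29b-1 at chr6:31063025-31063047, both on the minus strand, and miR-29c-3p lies at chr1:195037600-195037621 on the plus strand. Of the 10 genes, 2 had the complementary 7-base match TGGTGCT in their longest annotated 3' untranslated region (UTR), Rnf43 and Apcdd1, and 8 had none. Among 12386 genes that were tested and could be searched, 15.5% had such a match. Rnf43, whose product is a ubiquitin ligase that removes Frizzled receptors, carried 1 such match at base 578 and 1 match of the form GGTGCTA at base 172 of its 1340-base 3' UTR. They are printed from GRCm38, plus strand, with the match in capitals, from chr11:87734755-87734784 and chr11:87734349-87734378.
Rnf43 first site: ctctctgtaccttctccctggcTGGTGCTc
Rnf43 second site: ctgatggcgagtgcaggcgggaGGTGCTAt
The match in Apcdd1 was followed by an A, the longest form searched, in a 3' UTR of 8901 bases, and the medians of UTR length were 1450 bases for the 10 genes and 1170 bases for all tested genes searched. A match is a run of letters and was not measured as a binding site here.

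Notum and Nkd1, inhibitors that act at the ligand and at Dishevelled, were the 2 genes of the 10 with separated groups, in which all 4 libraries labelled knockout lay above all 4 labelled WT. The fitted fold between the groups was 4.37 for Notum and 2.13 for Nkd1. The other 8 genes had overlapping groups and log2 fold changes (knockout label over WT label) of 0.02 to 0.77, with a median of 0.12. No gene of the 10 passed an adjusted p of 0.05 by the edgeR quasi-likelihood test with Benjamini-Hochberg adjustment over 14897 genes, where the adjusted p was 0.994 to 0.995, and 0.0201% of genes passed in either direction. None passed by DESeq2, which called 0.15% of its genes, or in the authors' deposited table. An unadjusted p under 0.05 with a higher value in the libraries labelled knockout was found for 2 of the 10 genes and for 1.87% of all genes tested (278 genes, against 124 lower). Groups that did not overlap, with the knockout label higher, were likewise found for 2 of the 10 genes, and for 0.913% of all genes tested (136 genes, against 92 lower). These 2 genes are Notum and Nkd1. Nothing is read from either count of 2, since the 10 genes were chosen with earlier results of these data known. Notum also passed the filter on low counts through the libraries labelled knockout alone. At its levels with the WT label it would not have been tested in this fit.

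**Figure D1:**
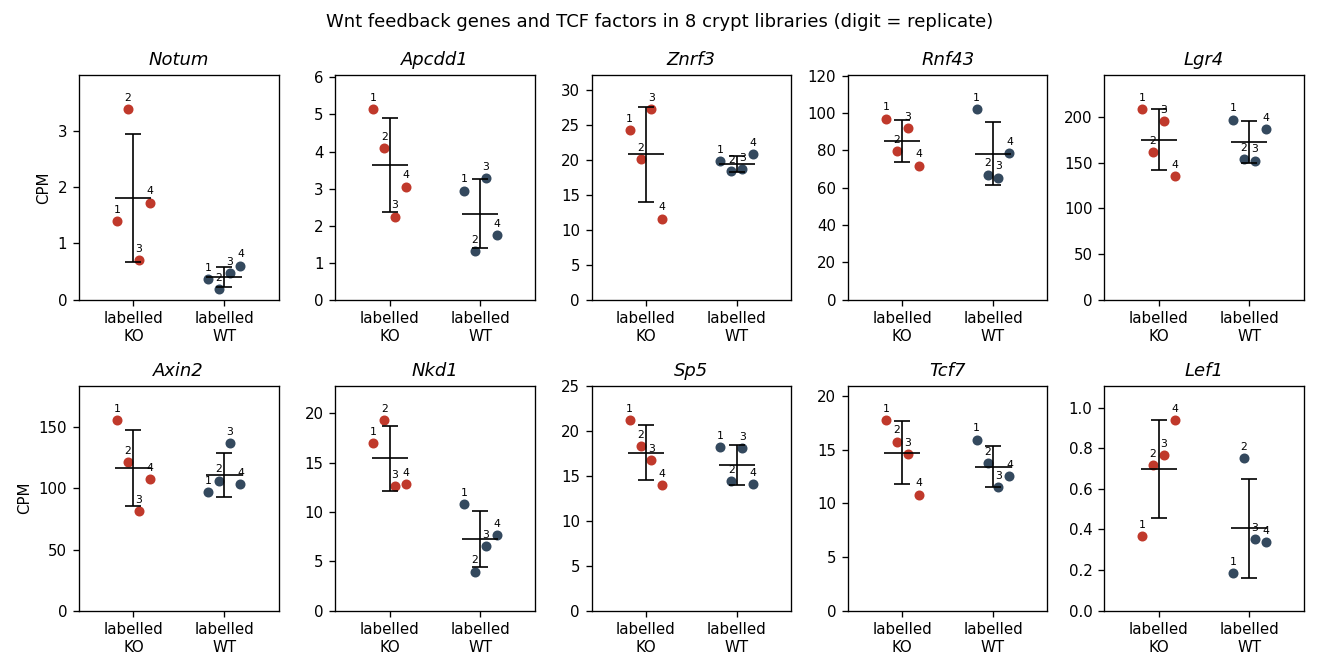
Level of each gene in CPM (TMM-scaled, linear axes from 0) in the 4 libraries labelled KO (red, left in each panel) and the 4 labelled WT (blue, right). Digits are replicate numbers, and bars give the mean ± SD. The groups are separated for Notum and Nkd1 and overlap in the other 8 panels.

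Notum (ENSMUSG00000042988, GRCm38 chromosome 11, 120653788 to 120661175, minus strand) codes for a secreted enzyme that strips the lipid from Wnt proteins and so inactivates them. It had 19, 52, 12 and 22 counts in KO1 to KO4, against 6, 3, 8 and 9 counts in WT1 to WT4, or 105 counts in the libraries labelled knockout and 26 in those labelled WT. On the CPM scale these were 1.40, 3.38, 0.707 and 1.72 in KO1 to KO4 and 0.368, 0.188, 0.468 and 0.605 in WT1 to WT4. KO2 stood highest, and the gap between the groups was narrow, since KO3 lay only just above WT4. The means were 1.80 ± 1.14 CPM with the knockout label and 0.407 ± 0.176 CPM with the WT label (SD, n = 4 each). The log2 fold change was 2.13 (SE 0.54, 95% interval 0.91 to 3.34), an unadjusted p of 0.00313 and an adjusted p of 0.994 in the edgeR test. Without KO2 the log2 fold change was 1.62, and without KO3 it was 2.40. Each of the 8 fits without 1 library put Notum higher with the knockout label. That sign follows from the separated groups and adds no support. By p, Notum ranked 32nd of all genes tested. It passed the filter on low counts through the libraries labelled knockout alone, so its p, rank, interval and fits are a description only. It shares its locus with the antisense transcripts Notumos, with 16 counts in the libraries labelled knockout and 8 in those labelled WT, and Myadml2os, with 9 counts with the knockout label and 3 with the WT label. Whether the counting used strand is not known from the sources used here.

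Apcdd1 (ENSMUSG00000071847, GRCm38 chromosome 18, 62922231 to 62961179, plus strand) codes for a membrane glycoprotein that binds Wnt and Lrp proteins and inhibits signalling from the cell surface. It had 5.14, 4.10, 2.24 and 3.05 CPM in KO1 to KO4, against 2.94, 1.32, 3.27 and 1.75 CPM in WT1 to WT4. KO1 and KO2 lay above every library labelled WT, while KO3 and KO4 lay within their range. The log2 fold change was 0.64 (SE 0.37, 95% interval -0.19 to 1.47, unadjusted p = 0.116, edgeR). The interval of Apcdd1, which holds a miR-29 seed match, spans both directions.

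Znrf3 and Rnf43 code for related membrane ubiquitin ligases that mark Frizzled receptors for degradation. Znrf3 (ENSMUSG00000041961, GRCm38 chromosome 11, 5276324 to 5444847, minus strand) had 24.3, 20.2, 27.3 and 11.6 CPM in KO1 to KO4, against 19.8, 18.4, 18.7 and 20.8 CPM in WT1 to WT4. Its 4 values with the WT label lay within a narrow band, whereas the values with the knockout label reached both above and below that band, with KO3 highest and KO4 lowest. The means were 20.8 ± 6.81 CPM with the knockout label and 19.4 ± 1.10 CPM with the WT label (SD, n = 4 each). Znrf3 had a log2 fold change of 0.10 (SE 0.23, 95% interval -0.42 to 0.62, edgeR), which was -0.06 without KO3. Rnf43 (ENSMUSG00000034177, GRCm38 chromosome 11, 87662722 to 87735539, plus strand) had 96.9, 79.7, 91.9 and 71.8 CPM in KO1 to KO4, against 102, 67.0, 65.3 and 78.6 CPM in WT1 to WT4. WT1 was the highest library of all and WT3 the lowest, so the range with the WT label enclosed that with the knockout label. Rnf43, the gene with the printed seed matches, had a log2 fold change of 0.12 (SE 0.17, 95% interval -0.25 to 0.50, edgeR). On the deposited FPKM scale, which divides by gene length, Rnf43 stood 4.05 to 7.46 times above Znrf3 in libraries labelled knockout and 4.21 to 6.19 times in libraries labelled WT. KO4 gave the highest of these ratios, and its Znrf3 level was the lowest of the 8.

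Lgr4 (ENSMUSG00000050199, GRCm38 chromosome 2, 109917647 to 110014257, plus strand) codes for the R-spondin receptor that, unlike its relative Lgr5, is expressed beyond the stem cells of the crypt. It had 209, 162, 196 and 135 CPM in KO1 to KO4, against 197, 154, 153 and 187 CPM in WT1 to WT4. The highest and the lowest library both carried the knockout label, and the groups overlapped throughout. The means were 175 ± 33.4 CPM with the knockout label and 173 ± 22.7 CPM with the WT label (SD, n = 4 each), and the log2 fold change was 0.02 (SE 0.17, 95% interval -0.35 to 0.40, edgeR). Single libraries turned its sign: leaving out KO1, KO3, WT2 or WT3 put it below 0. Lgr5, which was measured beside it as the marker receptor of crypt base stem cells, had 65.0 ± 22.8 CPM with the knockout label and 52.3 ± 14.9 CPM with the WT label, a log2 fold change of 0.31 (SE 0.26, edgeR). Per length, Lgr4 exceeded Lgr5 by 3.70 to 5.87 times in FPKM in libraries labelled knockout and by 4.61 to 7.26 times in those labelled WT. None of the 4 R-spondins, the ligands of both receptors, had enough counts to be tested, and only 2 of them had a count in any library.

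Axin2 (ENSMUSG00000000142, GRCm38 chromosome 11, 108920349 to 108950783, plus strand) codes for a scaffold of the destruction complex and is the most used reporter of Wnt activity among the 10. It had 156, 121, 81.4 and 107 CPM in KO1 to KO4, against 97.0, 106, 137 and 103 CPM in WT1 to WT4. The highest and the lowest values were both in libraries labelled knockout, KO1 and KO3, and the values with the WT label lay between them. The means were 117 ± 31.2 CPM with the knockout label and 111 ± 17.9 CPM with the WT label (SD, n = 4 each). Axin2 had a log2 fold change of 0.07 (SE 0.20, 95% interval -0.38 to 0.52, unadjusted p = 0.727, edgeR). The interval runs from 0.769-fold to 1.44-fold and so holds changes in both directions, and without KO1 the estimate was -0.10. Beta-catenin itself, Ctnnb1, had 706 ± 115 CPM with the knockout label and 675 ± 76.0 CPM with the WT label, a log2 fold change of 0.06 (SE 0.18, edgeR).

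Nkd1 (ENSMUSG00000031661, GRCm38 chromosome 8, 88521354 to 88594884, plus strand) codes for a protein that binds Dishevelled and dampens the signal between receptor and destruction complex. It had 17.0, 19.3, 12.6 and 12.8 CPM in KO1 to KO4, against 10.8, 3.95, 6.55 and 7.67 CPM in WT1 to WT4. KO2 was highest and WT2 lowest, and the nearest pair across the groups was KO3 and WT1. In counts, the libraries labelled knockout held 164 to 297 and those labelled WT 63 to 176. The means were 15.4 ± 3.27 CPM with the knockout label and 7.24 ± 2.83 CPM with the WT label (SD, n = 4 each). The log2 fold change was 1.09 (SE 0.29, 95% interval 0.44 to 1.75), or 2.13-fold with an interval of 1.36 to 3.35, with an unadjusted p of 0.0042 and an adjusted p of 0.994 in the edgeR test. It ranked 46th by p. Without WT2 the log2 fold change was 0.89, and without WT1 it was 1.35. All of the 8 fits without 1 library put Nkd1 higher with the knockout label, a sign that again follows from the separated groups. DESeq2 gave adjusted p of 0.122 for Nkd1 and 0.116 for Notum, and the authors' deposited table lists 0.144 and 0.137 for the same genes, all above 0.05. Axin2 and Nkd1, both intracellular inhibitors, stood in different proportions: the Axin2 to Nkd1 ratio of FPKM was 7.62, 5.21, 5.34 and 6.93 in KO1 to KO4, against 7.45, 22.3, 17.3 and 11.2 in WT1 to WT4. That ratio overlapped between the groups through KO1 and WT1, and was highest in WT2.

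**Figure D2:**
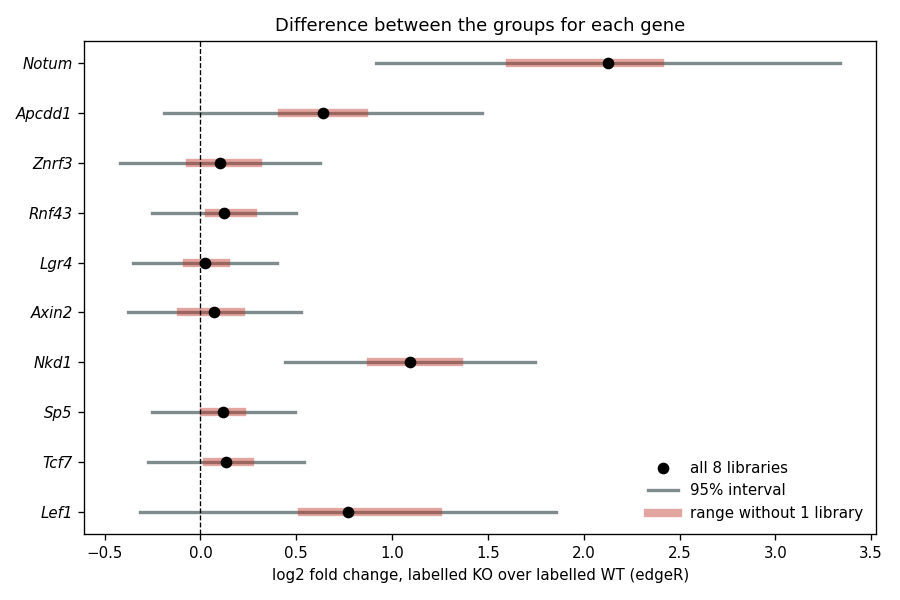
Log2 fold change of each gene, knockout label over WT label, from edgeR (point) with its 95% interval (thin line) and the range over fits that leave out 1 library each (thick line). The intervals of Notum (0.91 to 3.34) and Nkd1 (0.44 to 1.75) lie above 0, and those of the other 8 genes include 0. Notum passed the filter on low counts through the libraries labelled knockout alone.

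Sp5, Tcf7 and Lef1 act in the nucleus. Sp5 (ENSMUSG00000075304, GRCm38 chromosome 2, 70474923 to 70477729, plus strand), a zinc-finger factor that represses and tunes Wnt target genes, had 21.2, 18.3, 16.8 and 13.9 CPM in KO1 to KO4, against 18.2, 14.4, 18.1 and 14.1 CPM in WT1 to WT4. Its groups overlapped, with KO1 highest and KO4 lowest. Sp5 had a log2 fold change of 0.12 (SE 0.17, 95% interval -0.25 to 0.49, edgeR). Tcf7 (ENSMUSG00000000782, GRCm38 chromosome 11, 52252371 to 52283331, minus strand) codes for TCF1, which carries beta-catenin to its targets. It had 17.8, 15.7, 14.6 and 10.8 CPM in KO1 to KO4, against 15.9, 13.7, 11.5 and 12.5 CPM in WT1 to WT4. KO1 was again highest and KO4 lowest, and the log2 fold change was 0.14 (SE 0.18, 95% interval -0.27 to 0.54, edgeR). The antisense transcript A630014C17Rik overlaps Tcf7, with 23 counts in the libraries labelled knockout and 10 in those labelled WT, while Tcf7 had 870 counts with the knockout label and 862 with the WT label. Lef1 (ENSMUSG00000027985, GRCm38 chromosome 3, 131110471 to 131224356, plus strand), the relative of Tcf7 best known from lymphocytes and skin, had 5, 11, 13 and 12 counts in KO1 to KO4, against 3, 12, 6 and 5 counts in WT1 to WT4. It passed the filter on low counts through KO2, KO3, KO4 and WT2. On these low counts the estimate was wide: the log2 fold change was 0.77 (SE 0.48, 95% interval -0.32 to 1.86, edgeR), and it ran between 0.53 without WT1 and 1.24 without WT2. In FPKM, Tcf7 was 33.5 to 141 times Lef1 in libraries labelled knockout and 53.1 to 252 times in libraries labelled WT. Tcf7l2, the TCF factor most tied to intestinal stem cells, had a level per length close to that of Tcf7: the Tcf7 to Tcf7l2 ratio of FPKM was 0.511 to 1.58 in libraries labelled knockout and 0.958 to 1.11 in libraries labelled WT, with KO4 lowest. Tcf7l2 had 41.2 ± 14.4 CPM with the knockout label and 38.1 ± 3.98 CPM with the WT label (SD, n = 4 each), and Tcf7l1 was too low to be tested, at a mean of 0.548 CPM with the knockout label and 0.422 CPM with the WT label.

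The promoters of Sp5 and Nkd1 are shown to set a gene whose groups overlapped beside a gene whose groups were apart. RefSeq promoters (GRCm38.p6, 250 bases before to 50 after the start) were searched on both strands for the letters of the TCF motif, CTTTG followed by AA, AT, TA or TT, and no matches overlapped in the windows of these genes. The Sp5 window, chr2:70474673-70474972 on the plus strand, held CTTTGTT on the minus strand at base -222 and CTTTGAT on the plus strand at base -104, both in capitals as read on the plus strand. The Nkd1 window, chr8:88527383-88527682 on the plus strand, held no such motif. Its start site lies inside the gene, downstream of the gene start printed for Nkd1 above, so the window is that of a RefSeq transcript and not of the outermost annotated start.
Sp5 promoter: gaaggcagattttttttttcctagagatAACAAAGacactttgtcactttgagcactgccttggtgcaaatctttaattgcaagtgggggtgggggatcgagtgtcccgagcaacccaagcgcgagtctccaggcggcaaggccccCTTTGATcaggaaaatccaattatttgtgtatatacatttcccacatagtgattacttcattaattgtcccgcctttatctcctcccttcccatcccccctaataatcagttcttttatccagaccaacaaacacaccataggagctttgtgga
Nkd1 promoter: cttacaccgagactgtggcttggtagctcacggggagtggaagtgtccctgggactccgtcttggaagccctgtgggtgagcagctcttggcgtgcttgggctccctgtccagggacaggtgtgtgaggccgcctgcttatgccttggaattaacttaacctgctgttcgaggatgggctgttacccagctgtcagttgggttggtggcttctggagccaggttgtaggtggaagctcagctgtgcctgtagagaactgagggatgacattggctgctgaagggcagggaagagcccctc
Of the 10 genes, 7 had a promoter in the table, 12 windows in all, and 2 genes had a motif in any window, Sp5 and Lef1. Lef1 held 1 CTTTGTA at base -147 of 1 of its 4 windows, the one at chr3:131156044-131156343. That window lies inside the gene, downstream of the gene start printed for Lef1 above, and the other Lef1 windows held no motif. Among all 27025 genes of the table, 18.9% had the motif in any window, and among all 32851 windows 16.9% did. Axin2, Rnf43, Tcf7 and Lgr4 held none in these windows, and the windows of Notum, Znrf3 and Apcdd1 were not searched.

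Per length, the 10 genes covered a wide range of levels in both groups. The mean FPKM over the 8 libraries was 29.3 for Lgr4, 20.5 for Axin2 and 12.3 for Rnf43, followed by Sp5 at 7.96, Tcf7 at 4.62, Znrf3 at 2.53 and Nkd1 at 2.46. Notum at 0.454, Apcdd1 at 0.229 and Lef1 at 0.0623 closed the order. Only the neighbours Sp5 and Tcf7, and Tcf7 and Znrf3, had ranges over the 8 libraries that did not overlap, while Znrf3 exceeded Nkd1 in 5 of 8 libraries and Notum exceeded Apcdd1 in 5 of 8. Each of the other neighbouring pairs kept its order within all 8 libraries although their ranges overlapped across libraries. The FPKM of Apcdd1 divide its counts by a gene length of 12884 bases, the longest of the 10. Lgr4 held 32.6% to 40.7% of the summed FPKM of the 10 genes in libraries labelled knockout and 33.5% to 40.6% in libraries labelled WT. Nkd1 averaged 3.36 ± 0.696 FPKM with the knockout label and 1.57 ± 0.604 FPKM with the WT label (SD, n = 4 each), against an 8-library mean of 2.53 FPKM for Znrf3.

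**Figure D3:**
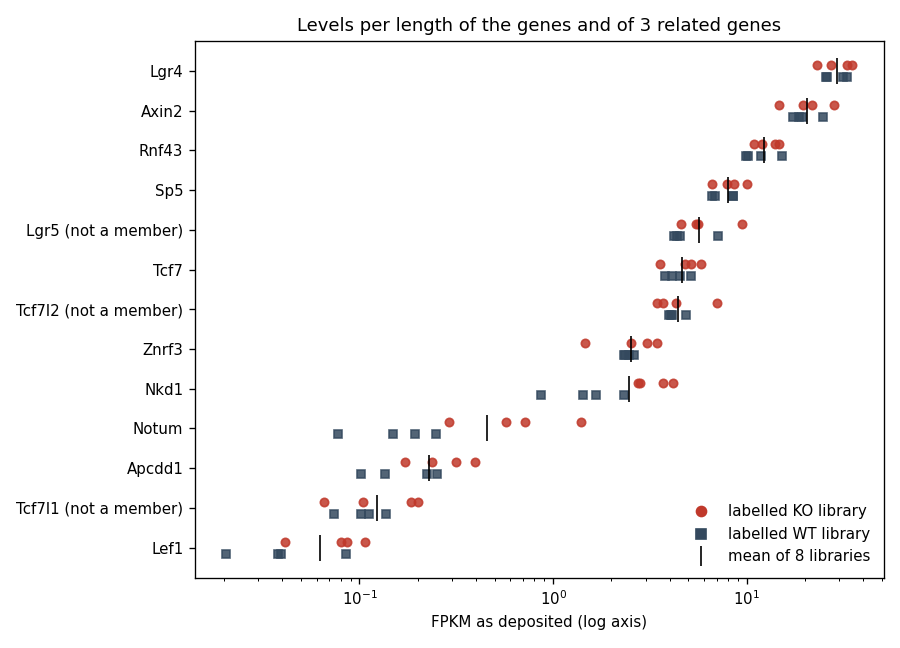
Level per length (deposited FPKM, log axis) of the 10 genes and of Lgr5, Tcf7l2 and Tcf7l1 in each library labelled KO (red circles) and WT (blue squares), with the mean of all 8 libraries as a vertical line. Lgr4 is highest at a mean of 29.3 FPKM and Lef1 lowest at 0.0623 FPKM, and only Notum and Nkd1 show red and blue symbols apart.

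Single libraries stood at the ends of the range for several genes at once. KO1 was the highest of the 8 libraries in 5 genes (Axin2, Apcdd1, Sp5, Tcf7 and Lgr4), and KO4 was the lowest in 4 (Znrf3, Sp5, Tcf7 and Lgr4) and the highest in Lef1. Among libraries labelled WT, WT2 was the lowest in 3 genes, Nkd1, Notum and Apcdd1, and WT4 was at neither end for any gene. The log2 fold changes of all 10 genes were above 0, with a median of 0.13, beside a median of 0.01 and 52.0% above 0 over all genes tested. Nothing is read from this count either, because the 10 genes were chosen with earlier results of these data known. Without KO1, and likewise without KO3, 8 of the 10 were above 0. The median of the 10 was 0.04 without KO1 and 0.28 without KO4.

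Markers of crypt cell types also varied between the libraries. The 7 Paneth-cell markers summed to 42560, 56180, 33520 and 17070 CPM in KO1 to KO4, against 23140, 19690, 25620 and 25450 CPM in WT1 to WT4. KO1, KO2 and KO3 lay above every library labelled WT in this sum, and KO4 lay below them all. Most of each sum was Lyz1 and Defa24 (15500 and 15740 CPM in KO1). Among the 7 markers, only Lyz1 had KO1, KO2 and KO3 each above every library labelled WT. Defa17 was highest in WT4 (1031 CPM). Ang4 was highest in KO2 (3756 CPM), but higher in WT3 and WT4 (3336 and 3720 CPM) than in KO1 and KO3 (2542 and 2917 CPM). A log2 fold change above 0 was found for 7 of the 7 markers, with a median of 0.28, and none passed the edgeR threshold. KO2 had the highest sum and also the highest Notum and Nkd1. KO4 had the lowest sum, with 1.72 CPM of Notum and 12.8 CPM of Nkd1, both above every library labelled WT. No Paneth marker was at 0 in any library. The 6 stem-cell markers summed to 3672, 2502, 3397 and 1400 CPM in KO1 to KO4 and to 3962, 2364, 2251 and 2659 CPM in WT1 to WT4, lowest in KO4, which was also lowest in Znrf3, Sp5, Tcf7 and Lgr4. That list holds Axin2, 1 of the 10 genes, and most of its sum is Olfm4 (840 of the 1400 CPM in KO4). The 8 cell-cycle genes summed to 472 to 1148 CPM with the knockout label and 841 to 1184 CPM with the WT label, with 0 of 8 above 0 on the log2 scale. T-cell markers, given because T cells also use Tcf7 and Lef1, summed to 44.5 to 94.9 CPM with the knockout label and 46.3 to 110.5 CPM with the WT label. WT1, with the highest T-cell sum, had the lowest Lef1 of all libraries. KO4, with the highest T-cell sum among libraries labelled knockout (94.9 CPM), had the highest Lef1 (0.940 CPM). B-cell and plasma-cell markers summed to 7.60 to 31.8 CPM with the knockout label and 7.90 to 70.7 CPM with the WT label, highest in WT2, where Notum, Nkd1 and Apcdd1 were lowest. In KO2, which had the highest of these sums among libraries labelled knockout (31.8 CPM), Notum and Nkd1 were highest. Enterocyte markers summed to 6422 to 39070 CPM with the knockout label and 9278 to 17450 CPM with the WT label, and no gene of any marker list passed the edgeR threshold. The part of these cell types in the values of the 10 genes was not tested, and in bulk RNA fewer cells of a type and less RNA per cell cannot be told apart.

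**Figure D4:**
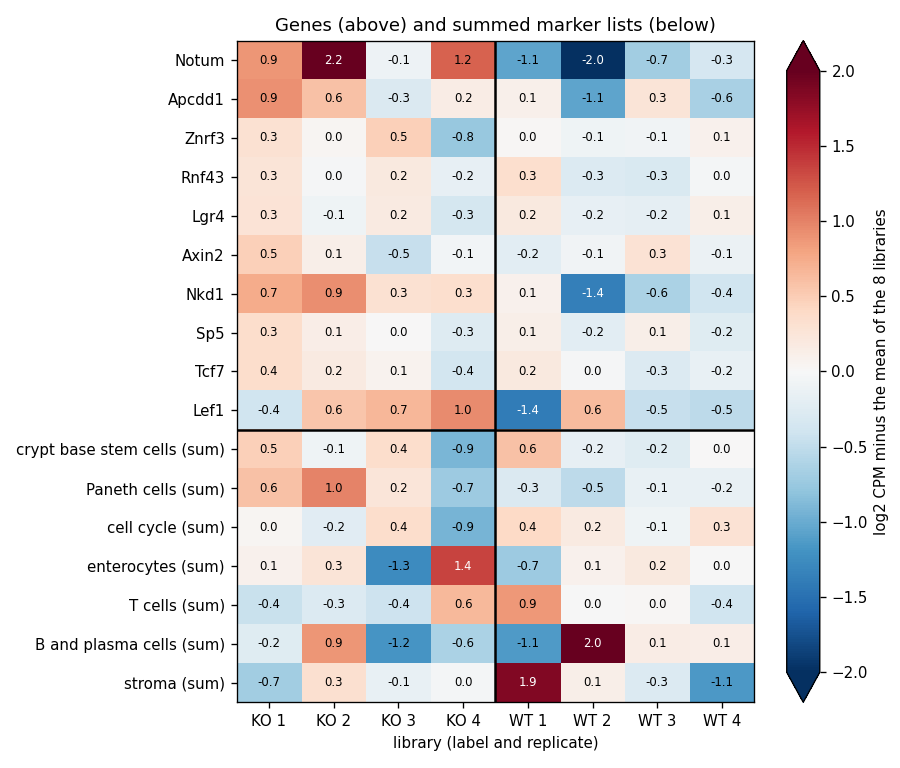
Log2 CPM of each gene (above the line) and log2 of each summed marker list (below it) minus the mean of the 8 libraries, with libraries labelled KO on the left and WT on the right. Colours saturate at ±2. Notum and Nkd1 are lowest in WT2 and highest in KO2, where the Paneth sum is also highest (56180 CPM). In KO4, where the Paneth sum is lowest (17070 CPM), Notum and Nkd1 still lie above every library labelled WT. KO4 also shows low Znrf3, Lgr4 and stem-cell markers together with high enterocyte markers.

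The rest of the pathway was read from 97 other Wnt genes in lists of ligands, secretion factors, R-spondins, receptors, destruction-complex and other cytoplasmic proteins, nuclear partners, other inhibitors and other target genes. Of the 65 that could be tested, 0 passed the adjusted threshold by edgeR and 0 by DESeq2, and 51 leaned to the knockout label on the log2 scale while 14 leaned to the WT label, with a median of 0.10, beside 52.0% of all tested genes above 0. An unadjusted p under 0.05 was found for 4 of the 65, beside the 1.87% of all tested genes that were higher at that p, all 4 higher with the knockout label: Bambi, Fzd3, Ctnnbip1 and Fzd9, the last named after its value was seen. None of the 65 had groups that did not overlap, beside 0.913% of all tested genes with the knockout label higher (136 genes, against 92 lower). These lists were also chosen with earlier results of these data known, so nothing is read from their counts. Bambi, a membrane pseudoreceptor best known for blocking TGF-beta and BMP signals and also a Wnt target, had 33.4, 26.7, 17.3 and 12.6 CPM in KO1 to KO4, against 13.5, 10.8, 14.4 and 11.2 CPM in WT1 to WT4, a log2 fold change of 0.85 (SE 0.28, unadjusted p = 0.0143, edgeR). Fzd3, a Frizzled receptor, averaged 1.75 ± 0.527 CPM with the knockout label and 0.868 ± 0.290 CPM with the WT label, a log2 fold change of 1.00 (SE 0.34, edgeR). Ctnnbip1, which keeps beta-catenin from TCF proteins, averaged 31.2 ± 4.88 CPM with the knockout label and 23.9 ± 3.76 CPM with the WT label, a log2 fold change of 0.38 (SE 0.16, edgeR). All 4 of these genes had an edgeR adjusted p of 0.994.

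Among ligands, 3 of 6 tested genes lay above 0 and 3 below. Wnt3, the Paneth-cell ligand of the crypt, had 27.6, 35.8, 22.6 and 13.1 CPM in KO1 to KO4, against 18.3, 10.5, 20.1 and 11.8 CPM in WT1 to WT4, a log2 fold change of 0.71 (SE 0.32, unadjusted p = 0.052, edgeR). KO2, the library with the highest Paneth sum, also had the highest Wnt3, while KO4, with the lowest Paneth sum, lay above WT2 and WT4 in Wnt3. Wls, the carrier that brings Wnt proteins to the cell surface, averaged 31.1 ± 10.5 CPM with the knockout label and 35.6 ± 2.14 CPM with the WT label (SD, n = 4 each). Receptors lay above 0 in 12 of 13 tested genes with a median of 0.06, cytoplasmic proteins in 12 of 15 with a median of 0.09, and nuclear partners in 10 of 11 with a median of 0.11. Other inhibitors lay above 0 in 6 of 7 tested genes with a median of 0.24. Bambi, described above as a blocker of TGF-beta and BMP signals, is counted in that list. A further 13, among them the secreted inhibitors Dkk1, Sfrp1 and Wif1 and the Nkd1 relative Nkd2, were too low to be tested. Other Wnt targets lay above 0 in 7 of 11 tested genes with a median of 0.10, and the one with the smallest p, Rgmb, a BMP co-receptor, averaged 134 ± 44.2 CPM with the knockout label and 112 ± 24.0 CPM with the WT label. In the destruction-complex list Csnk1e, a casein kinase, had the smallest p, at 20.6 ± 1.06 CPM with the knockout label and 18.2 ± 2.58 CPM with the WT label.

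**Figure D5:**
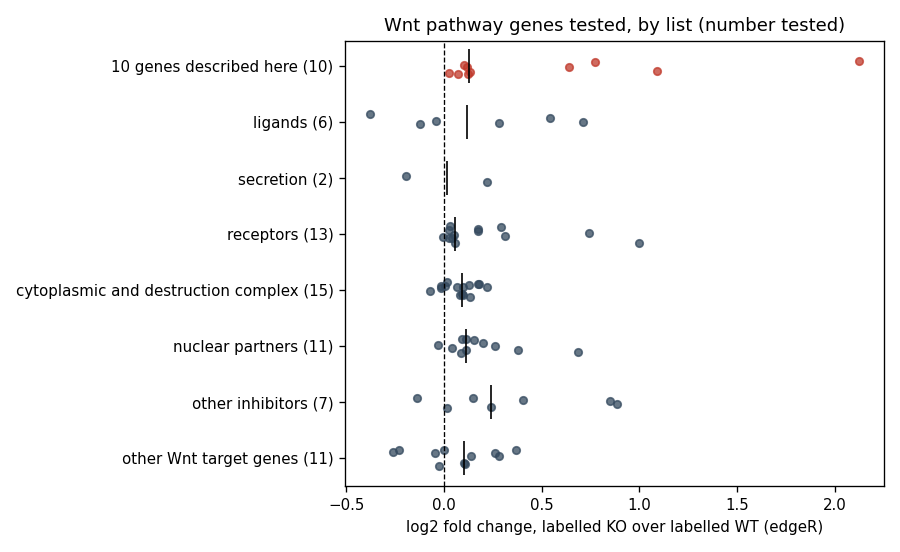
Log2 fold change, knockout label over WT label (edgeR), of each tested Wnt gene by list, with the 10 genes described here in red and the median of each list as a vertical line. Most of the 65 other genes lie near 0, with a median of 0.10, and Notum at 2.13 lies farthest from 0. Its value is a description only, since Notum passed the filter on low counts through the libraries labelled knockout alone.

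The genes whose pattern over the 8 libraries was most like Notum, Nkd1 and Axin2 were ranked by Pearson r of log2 CPM over all tested genes. Over 8 libraries and 14897 genes such values run high, and they are given as a description. For Notum they were BC024139 (r = 0.993), Gpr182 (r = 0.978) and Gm32742 (r = 0.976), each with a Spearman rho of 0.976. For Nkd1 they were Plxnd1 (r = 0.991, rho = 0.976), Carmil3 (r = 0.982, rho = 0.929) and an unnamed transcript (r = 0.969, rho = 0.976). For Axin2 they were Reg3a (r = 0.978, rho = 0.929), an unnamed transcript (r = 0.977, rho = 0.976) and Acaa1b (r = 0.969, rho = 0.976). No gene stood on more than 1 of these lists.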

How the data were processed

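Whole-number counts per gene for 55880 genes and 8 libraries were taken from the table the authors deposited, per the file headers. The FPKM the authors deposited equal those counts over gene length times 1 constant per library, as checked on 9173 genes. The authors' deposited table also holds group means, a signal on the scale of normalised counts, log2 fold changes and p-values, quoted where named. The submitters' processing notes list HISAT2 and DESeq2 and give no version of either. Not given in the sources used here were the genome build, the read counter and its strand setting. Coordinates are GRCm38, since 99.5% of the 55144 gene identifiers shared with GENCODE M21 had identical positions in that annotation, and 9 of the 10 genes did, with Tcf7 differing at its end.

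The test of the counts was the robust quasi-likelihood test of edgeR 4.0.16 (R 4.3.3) after TMM and filterByExpr, at a Benjamini-Hochberg threshold of 0.05. All 10 genes passed the filter, as did 14897 genes in all. CPM use TMM library sizes, and log2 CPM a prior count of 2. The SE divides the absolute log2 fold change by the root of the F statistic, and intervals use the test's degrees of freedom. The genes and the Wnt and marker lists were chosen with earlier results of these data known. The text names all 10 genes, per other list the one with the smallest p, Lgr5, Ctnnb1, Tcf7l1 and Tcf7l2, and the 3 closest patterns for Axin2, Notum and Nkd1. DESeq2 1.42.0, limma-voom (limma 3.58.1), RLE size factors and other filters were tried as alternatives, with a replicate block and the omission of each library. The test was checked on simulated data. Replicates differed by more than sampling noise, with a chi-square of 32.2 or more for each degree of freedom in every pair within a group. Pairs with KO4 had the highest values, 141 to 230, and the highest of the other pairs was 89.5 (KO2 and KO3). Motifs were searched in RefSeq promoters, and seed matches in GENCODE M21 3' UTRs of at least 50 bases.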

Additional observations from a re-analysis of the deposited data

How the results depend on the processing

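The number of all genes past the threshold was 3 higher and 0 lower with the knockout label. It was 20 higher and 4 lower by DESeq2 and 5 higher with no filter, and 2 to 3 higher and 0 lower when each library was left out. Of the 10 genes and the other Wnt genes that each alternative could fit, 0 passed under these and under RLE size factors, limma-voom and at least 5 CPM in 4 libraries. The last filter dropped Notum, Apcdd1 and Lef1 and low Wnt genes such as Fzd3. Leaving out single libraries moved the log2 fold change of Axin2 between -0.1015 (without KO1) and 0.2104 (without KO3), that of Znrf3 between -0.05658 (without KO3) and 0.302 (without KO4), and that of Lgr4 between -0.0719 (without KO1) and 0.1321 (without KO4), with Lgr4 also at -0.03 without KO3, WT2 or WT3. The causes were not tested. Replicate numbers did not pair the libraries: deviations of same-numbered libraries correlated at 0.07, 0.03, -0.39 and -0.09. With the number as a replicate block, 2 genes were higher and 0 lower, Nkd1 had a log2 fold change of 1.14 and Notum 1.96, and 0 of the 10 passed. Depth limits Notum and Lef1, each with 26 counts over the 4 libraries labelled WT. Over all alternatives, the lowest adjusted p was 0.116 for Notum and 0.122 for Nkd1, both by DESeq2.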
